A study of Mus musculus with 16 samples.

Results

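Mouse embryonic stem cells (mESCs) that carry DNA methyltransferases were compared with mESCs that lack them, after both had been grown in 2i medium. The comparison took every sample titled as 3B3l cells in 2i (3B3l-2i, 2 arrays) and every sample titled as TKO cells in 2i (TKO-2i, 3 arrays), which made 5 of the 16 one-colour Agilent arrays of the study, and it covered all non-control probes. TKO cells are knockouts of Dnmt1, Dnmt3a and Dnmt3b. 3B3l cells are knockouts of Dnmt3a and Dnmt3b that retain endogenous Dnmt1, were rescued with exogenous Dnmt3b under constitutive expression and then received an expression construct for Dnmt3l. Both lines descend from the male wild-type line J1 of strain 129S4/SvJae, and both were grown without feeder cells on gelatin. Each group spent 2 weeks in N2B27 medium with 1 uM PD0325901, an inhibitor of the kinase MEK, 3 uM CHIR99021, an inhibitor of the kinase GSK3, and 1000 units per ml of LIF. Each genotype was 1 cell line, so that effects of the genotype and of the history of the line cannot be told apart, and the retained Dnmt1 and the added Dnmt3b and Dnmt3l cannot be told apart as sources of a difference. The same lines in serum (3B3l-serum and TKO-serum, 2 arrays each, 500 units per ml of LIF) and J1 cells in 2i (J1-2i, 3 arrays) served as reference levels, and the 4 arrays of J1 cells grown in serum on inactivated SNLP feeder cells (J1-serum) entered the fit as the remaining group.

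DNA methylation is placed on CG pairs by the de novo enzymes Dnmt3a and Dnmt3b, helped by their catalytically inactive cofactor Dnmt3l, and is copied to the new strand after replication by Dnmt1, which Uhrf1 brings to the replication fork. In mESCs it is known for silencing a set of germline genes with CG-rich promoters and for its part in genomic imprinting, while most housekeeping promoters stay free of it. A small and changing fraction of mESCs passes through a state that resembles the embryo at the 2-cell stage, in which genes such as the Zscan4 cluster are transcribed.

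Values below are log2 processed signals from which the 75th percentile of their array was subtracted, so that 0 is the level of a fairly bright probe, and a difference of 1 is a 2-fold change. Testing required that all arrays of some group read the probe well above background, which gave 27126 probes of 13917 named genes. The arrays of a group correlated at 0.985 in 3B3l-2i and at 0.970 to 0.992 in TKO-2i, and arrays of different lines at 0.942 to 0.952. Between 39.7% and 40.0% of the spots were well above background on the 3B3l-2i arrays and between 43.4% and 46.1% on the TKO-2i arrays. All 3B3l arrays were on slide 3, read on the second scan day with 1 J1-serum array, and the TKO-2i arrays were on slides 1 and 2. Line and slide therefore cannot be told apart except through that J1-serum array. The 8 embryonic stem cell markers (Pou5f1, Sox2, Nanog, Zfp42, Esrrb, Dppa5a, Tdgf1 and Utf1) were well above background on all 5 arrays, with a summed signal of 339.1 to 405.8 times the 75th percentile in 3B3l-2i and 339.6 to 351.2 times in TKO-2i. On each of these arrays 2 to 4 of the 8 were saturated, so the sums are capped and cannot show that levels were equal. Of the 20 fibroblast markers, 8 to 9 were above background in 3B3l-2i and 11 to 12 in TKO-2i, with sums of 4.84 to 4.95 and 5.45 to 5.81, where J1-serum with its feeders had 65.8 to 78.5. Markers of primitive endoderm (53.4 to 54.9 against 64.8 to 68.2) and of trophoblast (20.4 to 21.9 against 25.9 to 27.2) also summed to less in 3B3l-2i. The brightest members weigh most in such sums. By the limits given below, 3 of 17 tested primitive endoderm genes were higher in 3B3l-2i and 2 lower, with a median difference of 0.36. Of the higher genes, Cubn and Dab2 were near background in both lines, and Amn was well above it on only 1 TKO-2i array. The lower genes, Lama1 and Sparc, were bright in both lines. Amn, Cubn, Dab2 and Sparc were not called with slide as a fixed term in the fit, where Sparc stood at -0.05. Of 16 tested trophoblast genes 2 were higher and 3 lower, with a median of -0.26. Over all genes 5.47% were higher and 6.39% lower, with a median of 0.08. The part of other cells in the differences between the lines was not tested, and in such bulk RNA fewer cells of a type and less RNA per cell cannot be told apart.

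Between the lines in 2i, 761 genes were higher in 3B3l-2i (5.47% of the 13917 tested) and 889 were lower (6.39%), at a limma adjusted p of at most 0.05 and a difference of at least 2-fold. The widest differences included, among higher genes, Dnmt3b on 1 probe, the Zscan4 cluster and other genes of the 2-cell-like programme, the ectonucleotidase gene Nt5e and the meiotic initiator Stra8, and among lower genes the X-linked Xlr family, the testis gene 1700013H16Rik and Dppa3. The median difference over all genes was 0.08, with quartiles of -0.27 and 0.40. A difference of at least 4-fold was reached by 155 higher and 176 lower genes. Many of the calls were made against background. In all, 184 higher genes were not well above background on the TKO-2i arrays and 408 lower genes were not on the 3B3l-2i arrays, and 107 and 54 more were dim in both groups. The groups overlapped in 2 higher genes and in none of the lower ones. Slide mattered to which genes were called. With slide as a fixed term, which rests on the 1 J1-serum array of slide 3, 614 genes were higher and 626 lower, of which 406 and 512 were also called without the term. That J1-serum array was shifted at least 2-fold in the direction of the call for 13.6% of the called probes and for 5.76% of all tested probes. The 2 and 3 arrays were not stated to come from separate cultures, so p-values measure only the spread between samples, which may be technical. That spread was pooled over all groups of the fit, J1-serum with its array of slide 3 included, and not taken from the compared arrays alone. For Pcgf1 the 3B3l-2i and TKO-2i arrays had standard deviations of 0.15 and 0.06, but the standard error was 0.41. There the J1-serum array of slide 3 stood 1.56 above the others. An exact permutation test of 2 against 3 arrays cannot go below p = 0.1.

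The methyltransferase transcripts were examined first, as a check of the genotypes. Dnmt1 measured 2.21 and 1.91 on the 3B3l-2i arrays, -1.58, -1.42 and -1.64 on the TKO-2i arrays and 2.32 to 2.45 in J1-2i. The level in 3B3l-2i was close to that of the wild type and 12.2-fold above TKO-2i (3.61 ± 0.12 SE, limma adjusted p 6e-10), with no overlap. Dnmt3a measured -4.33 and -4.52 in 3B3l-2i, -4.54, -4.72 and -5.00 in TKO-2i and -0.95 to -0.61 in J1-2i. It was not above background in either knockout line, and its difference of 0.33 ± 0.16 did not pass the test (limma adjusted p 0.136).

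Dnmt3b was read by 3 probes of the same transcript accession, and they disagreed. The first measured 5.64 and 6.01 in 3B3l-2i, -0.69, -0.53 and -0.70 in TKO-2i and 0.56 to 0.68 in J1-2i, an 88.3-fold difference (6.46 ± 0.13 SE, limma adjusted p 4.14e-12). The second measured -0.89 and -0.55 in 3B3l-2i, 0.35, 0.31 and 0.19 in TKO-2i and 1.93 to 2.26 in J1-2i. The third measured -2.49 and -3.19 in 3B3l-2i, -1.31, -1.51 and -1.94 in TKO-2i and 0.15 to 0.37 in J1-2i. The first probe was far above the wild type in 3B3l cells, while the other two were below the wild type in both knockout lines and lower in 3B3l-2i than in TKO-2i, by -1.0 ± 0.15 (limma adjusted p 0.000337) and -1.26 ± 0.21 (limma adjusted p 0.000859). Those lower values lay near the 2-fold limit. Without 3B3l-2i replicate 1 the second probe stood at -0.83, and without TKO-2i replicate 1 or 2 at -0.97 or -0.99. Without 3B3l-2i replicate 2 the third probe stood at -0.91. Where the probes lie relative to the deleted exons and the construct was not analysed here.

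Dnmt3l measured 4.29 and 4.48 in 3B3l-2i, 2.75, 3.01 and 3.06 in TKO-2i and 0.69 to 0.80 in J1-2i. Both knockout lines were above the wild type, and 3B3l-2i was 2.72-fold above TKO-2i (1.44 ± 0.15 SE, limma adjusted p 2.06e-05). With slide as a fixed term the difference was 0.98, just under 2-fold. On its brighter probe Uhrf1 measured 4.66 to 4.70 in 3B3l-2i and 4.50 to 4.80 in TKO-2i, ranges that overlapped (0.01 ± 0.12, limma adjusted p 0.972), and the direction of this difference changed with the scaling.

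**Figure D1:**
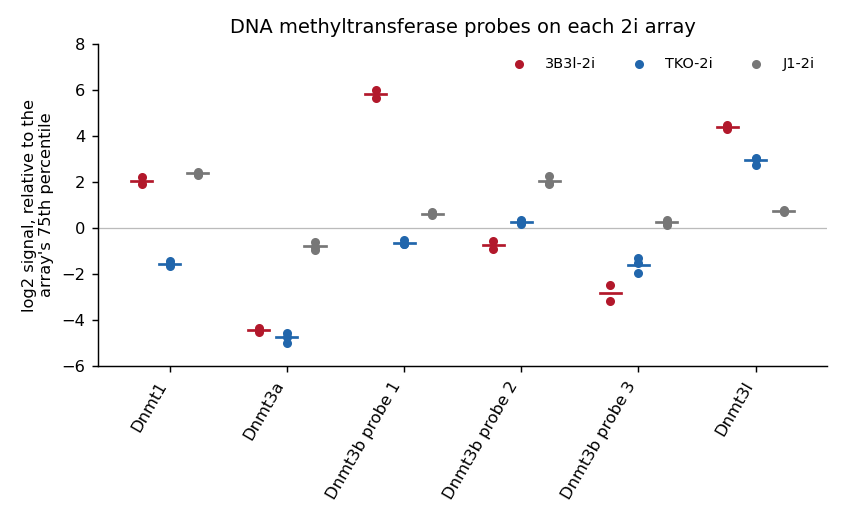
Log2 signal minus that array's 75th percentile (vertical axis) for each probe of Dnmt1, Dnmt3a, Dnmt3b and Dnmt3l on every 2i array, with points for single arrays and lines for group means. The first Dnmt3b probe lies at 5.64 and 6.01 in 3B3l-2i, above every other group, while the other 2 Dnmt3b probes lie below J1-2i in both knockout lines.

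Promoters of selected genes are shown here, because CG pairs are the substrate of the enzymes that differ between the lines and because germline genes moved in both directions. They are Dazl and, of the other called germline and meiosis genes with a promoter on record, those with the largest differences, 1700013H16Rik, Stra8, Mael and Ddx4. Zscan4f and Xlr3b were added after their values were seen. Each sequence runs 5′ to 3′ on the strand of the gene, from 250 bases before to 50 bases after the annotated start, and comes from RefSeq on assembly GRCm38.p6. Capitals mark CG pairs and the letters of 2 motifs, TCCCGC or its reverse GCGGGA, the core bound by E2F6, and CACGTG, the palindromic E-box, both searched on both strands. Of all 32851 promoters in the table, 20% held the first motif and 7.15% the second. Among the 11098 tested genes with a promoter in the table the shares were 35.3% and 10.1%. These latter shares take only the promoter of each gene with the most CG pairs, while the former count every promoter, so they are not alike in measure. A match is a description of letters only. Stra8, Mael, Ddx4 and Zscan4f were higher in 3B3l-2i, and Dazl, 1700013H16Rik and Xlr3b were lower.
Stra8: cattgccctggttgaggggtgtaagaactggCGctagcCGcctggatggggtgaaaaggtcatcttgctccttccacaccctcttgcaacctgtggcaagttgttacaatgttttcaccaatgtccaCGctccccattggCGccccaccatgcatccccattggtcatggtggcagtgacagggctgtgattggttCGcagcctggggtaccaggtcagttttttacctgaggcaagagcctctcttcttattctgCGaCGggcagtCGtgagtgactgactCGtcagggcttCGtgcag
Mael: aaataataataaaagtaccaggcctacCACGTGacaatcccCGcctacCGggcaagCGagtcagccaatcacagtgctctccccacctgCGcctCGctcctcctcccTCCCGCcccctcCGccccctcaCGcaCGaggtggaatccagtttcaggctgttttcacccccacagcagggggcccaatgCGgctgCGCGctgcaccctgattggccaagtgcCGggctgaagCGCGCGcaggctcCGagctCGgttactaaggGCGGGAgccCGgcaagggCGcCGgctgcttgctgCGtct
Ddx4: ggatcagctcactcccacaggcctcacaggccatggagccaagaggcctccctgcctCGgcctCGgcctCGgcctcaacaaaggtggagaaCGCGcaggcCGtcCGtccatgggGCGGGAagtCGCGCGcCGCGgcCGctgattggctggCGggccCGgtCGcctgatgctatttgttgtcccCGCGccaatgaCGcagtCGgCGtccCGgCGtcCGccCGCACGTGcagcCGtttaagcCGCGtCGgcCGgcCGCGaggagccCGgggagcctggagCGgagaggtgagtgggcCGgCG
Dazl: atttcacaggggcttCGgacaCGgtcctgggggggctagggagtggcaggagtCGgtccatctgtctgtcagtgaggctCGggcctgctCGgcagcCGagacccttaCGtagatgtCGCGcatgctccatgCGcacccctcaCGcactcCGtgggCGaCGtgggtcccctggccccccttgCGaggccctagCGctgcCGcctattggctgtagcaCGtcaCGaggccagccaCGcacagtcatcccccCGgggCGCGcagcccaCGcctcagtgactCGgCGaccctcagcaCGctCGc
1700013H16Rik: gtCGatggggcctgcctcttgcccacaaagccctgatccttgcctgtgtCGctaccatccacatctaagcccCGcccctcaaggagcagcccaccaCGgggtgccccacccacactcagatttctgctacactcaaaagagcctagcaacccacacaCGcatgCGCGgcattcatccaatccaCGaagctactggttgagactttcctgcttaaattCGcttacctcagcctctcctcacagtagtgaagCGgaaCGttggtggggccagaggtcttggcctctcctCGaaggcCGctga
Zscan4f: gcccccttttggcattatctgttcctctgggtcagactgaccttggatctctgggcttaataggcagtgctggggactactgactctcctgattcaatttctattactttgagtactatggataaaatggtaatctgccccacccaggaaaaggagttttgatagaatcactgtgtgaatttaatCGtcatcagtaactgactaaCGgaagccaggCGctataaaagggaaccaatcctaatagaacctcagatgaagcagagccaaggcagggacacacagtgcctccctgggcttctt
Xlr3b: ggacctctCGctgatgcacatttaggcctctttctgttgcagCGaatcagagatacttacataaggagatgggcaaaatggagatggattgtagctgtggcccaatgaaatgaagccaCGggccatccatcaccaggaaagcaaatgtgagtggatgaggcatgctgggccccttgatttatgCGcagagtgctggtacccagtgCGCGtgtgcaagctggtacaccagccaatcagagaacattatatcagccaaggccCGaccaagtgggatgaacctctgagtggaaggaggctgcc

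These windows lie at chr6:34920698-34920997 on the plus strand for Stra8, chr1:166238695-166238994 on the minus strand for Mael, chr13:112652261-112652560 on the minus strand for Ddx4, chr17:50293571-50293870 on the minus strand for Dazl, chrX:53757782-53758081 on the minus strand for 1700013H16Rik, chr7:11397665-11397964 on the plus strand for Zscan4f and chrX:73191929-73192228 on the plus strand for Xlr3b. The Ddx4 promoter held 38 CG pairs, Dazl 28, Mael 24, 1700013H16Rik 13, Stra8 10, Xlr3b 7 and Zscan4f 3. Ddx4 held GCGGGA from base 115 and CACGTG from base 222, counted from the 5′ end of the sequence. Mael held CACGTG from base 28, TCCCGC from base 108 and GCGGGA from base 262. Among these selected promoters, those with many CG pairs stood on both sides of the comparison, Ddx4 and Mael among the higher genes and Dazl among the lower. Over all called genes the comparison was incomplete, since only 77.3% of the higher and 77.5% of the lower genes had a promoter in the table, against 79.7% of all tested genes. By the promoter of each gene with the most CG pairs, the median was 19 pairs for higher genes and 14 for lower genes. Over all tested genes it was 21. Genes dim in 1 line held fewer pairs on both sides, with a median of 14.5 for higher genes dim in TKO-2i and 11 for lower genes dim in 3B3l-2i. Such dim genes were more frequent among the lower calls (408) than among the higher ones (184). These medians describe only genes with a promoter in the table, and the difference was not tested.

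The 2-cell-like genes held the widest difference of the comparison, that of Zscan4b. This gene measured 3.64 and 3.47 in 3B3l-2i, -4.59, -4.73 and -4.85 in TKO-2i and 1.12 to 1.26 in J1-2i. Zscan4f, of a cluster known for telomere lengthening in mESCs, measured 3.80 and 4.15 in 3B3l-2i, -3.89, -4.18 and -4.34 in TKO-2i and 1.82 to 2.04 in J1-2i. Both genes were at background in TKO-2i, intermediate in J1-2i and highest in 3B3l-2i, without overlap. Where a group is at background only a bound can be given, which is here the mean of the bright group over, per array of the dim group, the higher of the lowest signal well above background and the probe's own signal. On this scale Zscan4b was at least 119.5-fold and Zscan4f at least 159.8-fold higher in 3B3l-2i (limma adjusted p 4.61e-13 and 4.14e-12). Zscan4c on its probe measured in both groups was at 2.88 and 2.87 against -2.05, -1.65 and -1.38, a 23.7-fold difference, and Zscan4a at 3.43 and 3.28 against -0.40, -0.29 and -0.30, a 12.9-fold difference. The members of this cluster are nearly identical in sequence, so their probes may read each other's transcripts.

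Genes on chromosomes 4, 10, 12 and 13, most of them predicted, followed the same order. Gm2022 measured 4.05 and 4.19 in 3B3l-2i, -1.30, -1.29 and -1.51 in TKO-2i and 1.34 to 1.61 in J1-2i (5.49 ± 0.17 SE, 45-fold, limma adjusted p 2.63e-10). Gm4340 measured 3.92 and 3.83 in 3B3l-2i, -1.01, -0.70 and -0.83 in TKO-2i and 2.37 to 2.46 in J1-2i (4.72 ± 0.12 SE, 26.4-fold, limma adjusted p 6.26e-11). Gm4312 was higher by 4.51 and AF067061 by 4.22. J1-2i lay between the 2 lines for all of these. Gm8300 and Gm21319 were at background in TKO-2i and at least 64.8-fold and 63.8-fold higher in 3B3l-2i, and Gm20767 and Gm13043 at least 22.5-fold and 15.2-fold. Of the 9 genes tested from the list of 2-cell-like genes, 8 were higher with a median of 3.69, against 5.47% and a median of 0.08 over all genes. Usp17la, a ubiquitin protease gene, had probes in both directions (3.46 and -1.09), and only Zfp352, at 0.44, was not called.

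**Figure D2:**
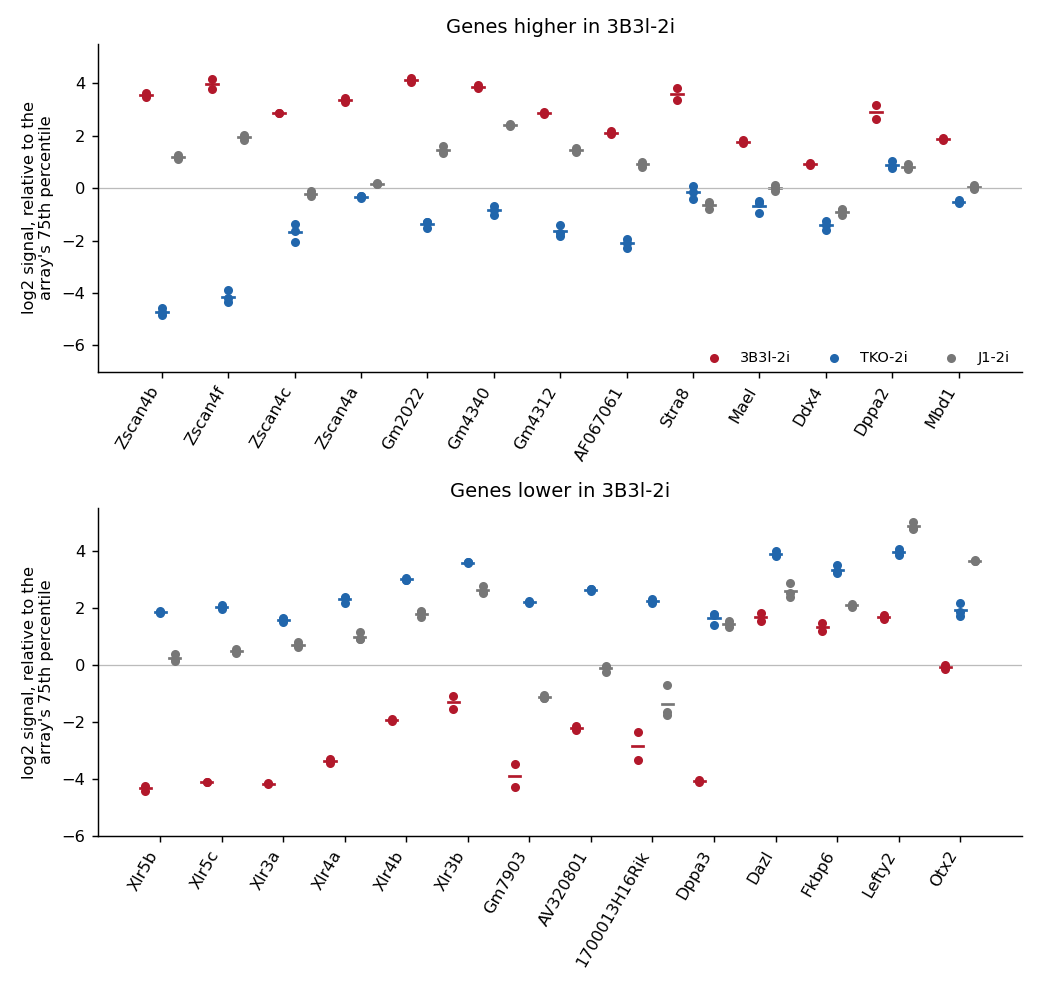
Log2 signal minus that array's 75th percentile (vertical axis) for genes higher (top) and lower (bottom) in 3B3l-2i, with 1 point for each 3B3l-2i, TKO-2i and J1-2i array and lines for group means. Zscan4b and Zscan4f lie at -3.89 or below in TKO-2i and at 3.47 or above in 3B3l-2i, and the Xlr genes show the reverse order.

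Germline genes differed in both directions. Stra8, which is needed for entry into meiosis, measured 3.35 and 3.82 in 3B3l-2i, 0.07, -0.13 and -0.42 in TKO-2i and -0.81 to -0.53 in J1-2i. It was 13.4-fold higher in 3B3l-2i (3.74 ± 0.20 SE, limma adjusted p 4.32e-08), with TKO-2i and the wild type both well below. Mael, a piRNA pathway protein that represses transposons, measured 1.84 and 1.71 in 3B3l-2i, -0.50, -0.59 and -0.95 in TKO-2i and -0.11 to 0.13 in J1-2i (5.46-fold, 2.45 ± 0.16 SE, limma adjusted p 3.17e-07). Ddx4, an RNA helicase of germ cells, measured 0.95 and 0.89 in 3B3l-2i, -1.27, -1.39 and -1.61 in TKO-2i and -1.04 to -0.81 in J1-2i (5.07-fold, 2.34 ± 0.14 SE, limma adjusted p 1.36e-07). Both were highest in 3B3l-2i without overlap. The bromodomain gene Brdt of the testis was at least 4.79-fold higher, the meiotic gene Tex11 was higher by 2.06, Tex13b by 1.73 and the histone reader Zcwpw1 by 1.43. The synaptonemal complex gene Sycp3 (1.28) and Meioc (1.53), which prolongs meiotic prophase, were higher as well.

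The opposite order held for Dazl, Fkbp6 and 1700013H16Rik. Dazl, an RNA-binding protein of germ cells, measured 1.55 and 1.83 in 3B3l-2i, 3.87, 3.82 and 3.99 in TKO-2i and 2.39 to 2.88 in J1-2i. Fkbp6, a cochaperone of the piRNA pathway, measured 1.46 and 1.20 in 3B3l-2i, 3.22, 3.29 and 3.52 in TKO-2i and 2.02 to 2.15 in J1-2i. For both genes J1-2i lay between the lines without overlap, and 3B3l-2i was 4.59-fold lower for Dazl (-2.20 ± 0.22 SE, limma adjusted p 1.44e-05) and 4.04-fold lower for Fkbp6 (-2.01 ± 0.16 SE, limma adjusted p 1.59e-06). Neither gene was at background in 3B3l-2i. The X-linked 1700013H16Rik measured -3.34 and -2.35 in 3B3l-2i and 2.30, 2.24 and 2.18 in TKO-2i, and was at least 23.6-fold lower in 3B3l-2i (limma adjusted p 5.17e-07). Asz1, a piRNA biogenesis protein, was lower, with a difference of -2.32 and at least 1.24-fold, and the meiotic cohesin gene Smc1b had -1.83 and at least 2.04-fold. From the germline and piRNA list 8 of 19 tested genes were higher and 4 lower, with a median of 0.66, and from the meiosis list 3 of 17 were higher and 1 lower, with a median of 0.65, against 5.47% higher, 6.39% lower and a median of 0.08 over all genes.

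X-linked gene families were among the most extreme lower genes, together with autosomal genes such as Dppa3 and Nefm, which are described below. Xlr3b, of a family of nuclear proteins related to the synaptonemal complex protein Sycp3, measured -1.53 and -1.08 in 3B3l-2i, 3.6, 3.58 and 3.6 in TKO-2i and 2.52 to 2.77 in J1-2i. Xlr4b measured -1.96 and -1.89 in 3B3l-2i, 2.97, 2.99 and 3.07 in TKO-2i and 1.68 to 1.88 in J1-2i. TKO-2i was highest and 3B3l-2i lowest for both genes, by 29.9-fold for Xlr3b (-4.90 ± 0.13 SE, limma adjusted p 5.53e-11) and by 30.6-fold for Xlr4b (-4.93 ± 0.12 SE, limma adjusted p 3.09e-11). Xlr4a, Xlr5c, Xlr5b and Xlr3a were at background in 3B3l-2i and at least 24.7-fold, 20.5-fold, 18-fold and 15-fold lower. For Xlr5b the J1-serum array of slide 3 lay -1.24 from the other J1-serum arrays. All 8 tested Xlr genes were lower, with a median of -5.31, against 6.39% of all genes. Members of this family share long stretches of sequence, and their probes may not be separate readings.

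Beyond the Xlr family, Fthl17-ps1 and Fthl17e, ferritin-like genes of the X chromosome, were 9.26-fold and 7.67-fold lower. Rhox4e, a homeobox gene of the X-linked Rhox cluster, was at least 4.65-fold lower. Rhox8 was the only other Rhox gene called among 10 tested, where 6.39% of all genes were lower. It had an uncalled probe at -0.12 and a called one at -1.37. The latter stood at -0.67 without 3B3l-2i replicate 1 and, also not called, at -1.28 and -1.27 without TKO-2i replicates 2 and 3. Glod5, a glyoxalase domain gene, measured -1.06 and -1.05 in 3B3l-2i, 1.86, 1.77 and 1.89 in TKO-2i and 1.79 to 1.91 in J1-2i (7.46-fold lower, -2.90 ± 0.11 SE, limma adjusted p 1.51e-09). TKO-2i and the wild type overlapped for Glod5, and 3B3l-2i lay below both. Efhc2, an EF-hand protein gene, was 7.08-fold lower, and Gm7903 and AV320801 were at least 23.2-fold and 28.6-fold lower. For Gm7903 the J1-serum array of slide 3 lay -1.08 from the others.

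By chromosome, 81 of 540 tested X-linked genes were lower in 3B3l-2i (15.0%) and 27 were higher (5%). Genes of the Xlr, Slx, Rhox and Fthl17 families were 19 of the 81, and outside them 62 of 512 X-linked genes were lower (12.1%). The share of X-linked genes that were lower was 11.5% with slide as a fixed term, when it was 4.50% over all genes, and 9.57% in the table of the authors, when it was 5.84%. It was 5.11% among probes well above background on all 16 arrays, when it was 3.24%. Among the autosomes the highest share of lower genes was 9.73% on chromosome 14, and the highest share of higher genes was 8.53% on chromosome 11.

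**Figure D3:**
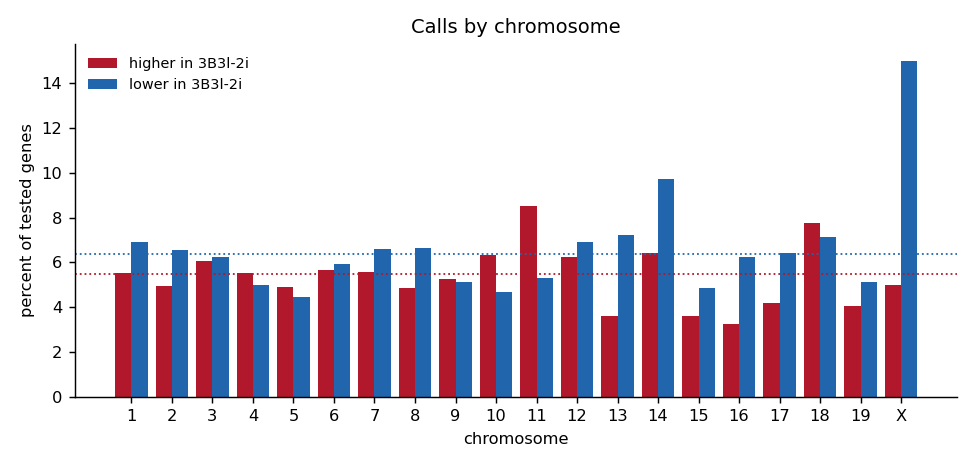
Percent of tested genes called higher and lower in 3B3l-2i (vertical axis) on each chromosome, with a line for each share over all genes. The X chromosome has 15.0% of its 540 tested genes lower, against 6.39% of all genes. Chromosome Y, with 6 tested genes, is not drawn.

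Dppa3, also known as Stella, which protects the methylation of the maternal genome in the zygote, was among the widest differences outside these families. It measured -4.13 and -4.05 in 3B3l-2i, 1.79, 1.41 and 1.76 in TKO-2i and 1.33 to 1.55 in J1-2i. Its level in TKO-2i overlapped that of the wild type and in 3B3l-2i it was at background, a difference of at least 15.7-fold (limma adjusted p 3.23e-10). Mbd1, a reader of methylated CG pairs, measured 1.93 and 1.84 in 3B3l-2i, -0.53, -0.44 and -0.58 in TKO-2i and -0.04 to 0.13 in J1-2i. It was 5.28-fold higher in 3B3l-2i (2.40 ± 0.18 SE, limma adjusted p 1.09e-06) on that probe, while its other 2 probes had -0.33 and -0.71 and were not called. It was the only gene called among 8 tested readers, where 5.47% of all genes were higher and 6.39% lower. The dioxygenase gene Tet2, which oxidises methylcytosine, was higher by 1.27 on 1 of its probes, but only by 0.86 with slide as a fixed term. The imprint protector Zfp57 was higher by 1.47 on 1 probe, which became 0.66 and was no longer called with that term, and its other probe was at -0.54. Prdm14 and Tet1 had differences of -0.12 and 0.37 and were not called.

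Of 20 naive pluripotency factors 2 were called, both higher, which is near the shares over all genes. On its brighter probe Nanog measured 5.41 and 5.89 in 3B3l-2i and 5.68 to 5.83 in TKO-2i (-0.10 ± 0.18, limma adjusted p 0.738), and its sign turned without 3B3l-2i replicate 1, to 0.14. That probe was saturated on 1 TKO-2i array. Esrrb (0.20), Klf2 (0.38) and Klf4 (0.25) did not pass the test, and Tbx3 reached 0.56 ± 0.12 (limma adjusted p 0.00356), below the 2-fold limit. The called factors were Dppa2 and Tfcp2l1. Dppa2, a chromatin factor of early embryos and mESCs, measured 2.63 and 3.18 in 3B3l-2i, 0.77, 0.83 and 1.05 in TKO-2i and 0.72 to 0.93 in J1-2i, and its second probe was higher by 1.53. Tfcp2l1 was called on 1 probe at 3.12 ± 0.80, for which the J1-serum array of slide 3 stood 3.43 above the others and which had -0.31 with slide as a fixed term. Without 3B3l-2i replicate 2 it was at 2.89 and not called. Its other probe had -0.12.

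Of 17 tested formative and primed pluripotency genes, which mark the next stage of the epiblast, 3 were lower and 1 was higher, against 6.39% and 5.47% of all genes, and their median was 0.27, against 0.08. Lefty2, a feedback inhibitor of Nodal, measured 1.61 and 1.75 in 3B3l-2i, 3.85, 3.95 and 4.06 in TKO-2i and 4.78 to 5.01 in J1-2i. Otx2, a transcription factor of the formative epiblast, measured -0.01 and -0.16 in 3B3l-2i, 1.85, 1.72 and 2.18 in TKO-2i and 3.63 to 3.69 in J1-2i. The order was J1-2i, TKO-2i, 3B3l-2i for both genes, without overlap, and 3B3l-2i was below TKO-2i by 4.84-fold for Lefty2 (-2.27 ± 0.11 SE, limma adjusted p 1.32e-08) and by 4.01-fold for Otx2 (-2.0 ± 0.12 SE, limma adjusted p 2.13e-07). Lefty1 was lower, with a difference of -1.78. Etv4 was the higher gene at 1.01, which fell below the limit to 0.80 without 3B3l-2i replicate 1 and to 0.93 without TKO-2i replicate 3.

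Of 15 tested feedback genes and targets of the ERK kinase, which lies downstream of MEK, 6 were higher and 1 was lower, with a median of 0.34, against 5.47%, 6.39% and 0.08 over all genes. Spry2, an inhibitor of receptor tyrosine kinase signalling, measured 1.77 and 1.49 in 3B3l-2i, -1.17, -0.85 and -1.48 in TKO-2i and -0.50 to -0.36 in J1-2i. It was 6.97-fold higher in 3B3l-2i (2.80 ± 0.22 SE, limma adjusted p 1.82e-06), and TKO-2i lay below the wild type. Myc was higher by 1.90, the ETS factor Etv1 by 1.63, the Sprouty gene Spry4 by 1.63, and Phlda1 by 2.57, of which 1.58 remained, without a call, with slide as a fixed term. Dusp5, a nuclear ERK phosphatase, was called higher but was dim in both groups. The immediate early gene Egr1 was lower, with a difference of -1.38 and at background in 3B3l-2i.

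Targets of Wnt and beta-catenin, the branch that inhibition of GSK3 turns on, were higher in 5 of 12 tested genes and lower in none, with a median of 0.31, against the same shares and median over all genes. Cdx1, a caudal homeobox gene, measured 4.83 and 5.82 in 3B3l-2i, 2.85, 2.57 and 2.44 in TKO-2i and 1.19 to 1.36 in J1-2i. It was 6.51-fold higher in 3B3l-2i (2.70 ± 0.23 SE, limma adjusted p 4.19e-06), and both knockout lines were above the wild type. T, the mesoderm gene Brachyury, was higher by 1.95 and Cdx2 by 1.90, while the Wnt antagonists Nkd1 and Dkk1 were at least 2.99-fold and 2.74-fold higher, Nkd1 on 1 of its probes, while the other had 0.58. Of 8 tested Id and BMP pathway genes 2 were higher and 2 lower, against 5.47% and 6.39% of all genes. The ligand Bmp4 was higher by 1.35 and its target Id3 by 1.44, whereas Id4 was lower, with -1.28, and Id2, with -1.20. Without 3B3l-2i replicate 2 Id2 stood at -0.88.

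Developmental and metabolic lists were mixed. Of 16 tested Hox genes 7 were higher and 4 lower, against 5.47% and 6.39% of all genes. Hoxb13 at 2.45 and Hoxa9 at 2.81 were among the higher ones. Hoxc6 was at least 2.13-fold and Hoxd9 at least 4.10-fold lower. Hoxa9 had a standard error of 0.65, the J1-serum array of slide 3 lay 1.59 above the others, and with slide as a fixed term it stood at 1.22 and was not called. Of 13 tested neural lineage genes 2 were higher and 4 lower, with a median of -0.49, against 5.47%, 6.39% and 0.08 over all genes. Stmn2, well above background on all arrays of both groups, was higher by 1.45. The neurofilament gene Nefm had the widest difference of this list. Nefm measured -3.52 and -3.69 in 3B3l-2i, 0.98, 1.16 and 1.24 in TKO-2i and -2.3 to -2.0 in J1-2i. It was at background in 3B3l-2i and at least 10.9-fold lower (limma adjusted p 5.15e-10), with TKO-2i above the wild type. Of 17 genes of hypoxia and glycolysis 5 were higher and 1 was lower, against 5.47% and 6.39% of all genes. The prolyl hydroxylase gene Egln3 was at least 3.87-fold higher, Pdk1, which limits entry of pyruvate into mitochondria, was higher by 1.56, and the mitophagy receptor gene Bnip3 was higher on all its 3 probes, at 1.34 on the brightest, 1.54 and 2.30. Pfkp, a phosphofructokinase gene, was lower at -2.12 on a probe at background in 3B3l-2i, while its brighter probe had -0.09 and was not called. Of 12 tested cell cycle regulators 3 were lower, the kinase inhibitors Cdkn1a and Cdkn2b, and Mycn, against 6.39% of all genes. Cdkn1a was called on its dimmer probe (-1.65), while its brighter probe had 0.22, and Cdkn2b was not called with slide as a fixed term.

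Mycn, a growth-promoting transcription factor of mESCs, measured 2.68 and 2.70 in 3B3l-2i, 4.13, 4.11 and 4.10 in TKO-2i and 4.22 to 4.25 in J1-2i. TKO-2i lay just under the wild type and 3B3l-2i was 2.68-fold below TKO-2i (-1.42 ± 0.12 SE, limma adjusted p 3.68e-06). Further genes measured in both groups with wide differences were lower. Ly6g6e, a surface protein gene, was 7.77-fold lower, the phosphatase subunit gene Ppp2r2c 6.55-fold, Ushbp1 7.04-fold, the semaphorin receptor gene Nrp2 5.51-fold, Fam53b 5.27-fold and the sorting nexin gene Snx20 8.99-fold, although for Snx20 the J1-serum array of slide 3 lay -1.21 from the others. Nt5e, the surface ectonucleotidase CD73, was at least 16.9-fold higher in 3B3l-2i. S100g, a calcium-binding protein gene, was at least 11.6-fold higher, but on a single 3B3l-2i array, since its spot was left out on the other.

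Imprinted genes, whose parental copies are told apart by methylation, were called at shares near those of all genes (5.47% higher and 6.39% lower). Of 13 tested maternally expressed genes only Meg3 was called, at -1.05 on the dimmest of its 3 probes, which fell under the limit to -0.93 without 3B3l-2i replicate 1, while its other probes had -0.31 and -0.60. Of 22 paternally expressed genes Dlk1 and Sgce were higher and Peg13 was lower. Dlk1 was not called on its other probe (0.99), nor with slide as a fixed term. One of 21 Polycomb subunits and 1 of 14 genes of H3K9 methylation were called, Pcgf1 and Atrx, both higher and near the 5.47% of all genes. Atrx was called on the dimmest of its 3 probes (1.83), and the others had -0.23 and 0.10. Neither gene was called with slide as a fixed term, where Pcgf1 turned to -0.24. Pcgf1 also lost its call when any 1 of the 5 arrays was left out, with 1.22 to 1.42.

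**Figure D4:**
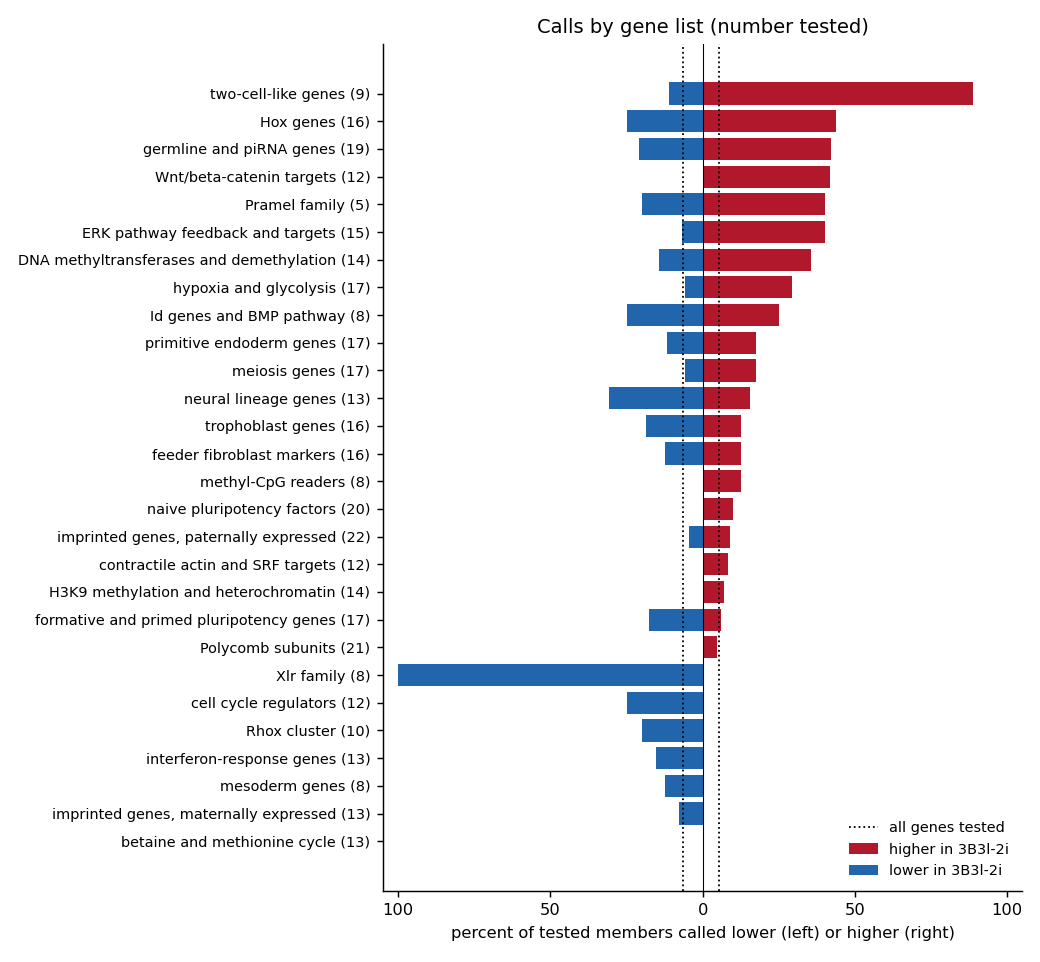
Percent of the tested members of each gene list called lower (bars to the left) or higher (bars to the right) in 3B3l-2i, with the number tested in parentheses. The Xlr family lies wholly on the lower side and the 2-cell-like genes almost wholly on the higher side, while the other lists hold a minority of called genes in either direction or calls on both sides.

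The same lines had also been measured in serum, on separate arrays (3B3l-serum on slide 3 and TKO-serum on slide 1), which allowed the difference between the lines to be compared between media. In serum 1741 genes were called (12.5%), 830 higher in 3B3l and 916 lower. Of the genes higher in 2i, 209 were also higher in serum, which is 27.5% of the 2i list and 25.2% of the serum list. Of the lower genes, 331 were also lower in serum (37.2% and 36.1%), while 63 genes were higher in 2i and lower in serum and 43 the reverse. A test of the interaction of line and medium called 1549 genes (11.1%), and 284 of the genes higher in 2i (37.3%) had a positive interaction and 301 of the lower genes (33.9%) a negative one.

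Dnmt1, the first Dnmt3b probe and most of the lower X-linked genes differed in the same direction in both media. In serum Dnmt1 was higher by 4.02 and Dnmt3b by 5.87, with interactions of -0.41 and 0.59 that were not called. Xlr3b was lower, with a difference of -4.71 in serum, 1700013H16Rik had -5.27 and Fthl17e -3.67. Of the 81 X-linked genes lower in 2i, 55 were lower in serum (67.9%), and of the 8 Xlr genes 7 were. Dnmt3l, by contrast, differed by only 0.31 in serum, with an interaction of 1.14 ± 0.23 (limma adjusted p 0.0046).

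The 2-cell-like genes and Stra8 had opposite differences in the 2 media. Zscan4b was 8.28 higher in 2i and had a difference of -1.95 in serum, an interaction of 10.23 ± 0.18, and Zscan4f had an interaction of 9.99 ± 0.23. Both genes were at background in TKO-2i, so these 2i differences and interactions rest on floor values and are not exact sizes. Of the 9 tested 2-cell-like genes 7 were lower in 3B3l-serum than in TKO-serum, with a median of -0.64, and 8 had a positive interaction. Over all genes 5.96% were higher and 6.58% lower in serum, and 771 of 13917 had a positive interaction. Stra8 was 3.74 higher in 2i and had a difference of -2.07 in serum (interaction 5.82 ± 0.29). In the germline and piRNA list, against the same shares over all genes, no gene was higher in serum and 10 were lower, and 11 of 19 had a positive interaction. Within this list the interaction was called for Fkbp6 (1.54), whose deficit was smaller in 2i, and not for Dazl (0.85, limma adjusted p 0.12).

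The widest negative interactions among the named genes were those of Dppa3 and of keratin and cytoskeletal genes. Dppa3 differed by -0.07 in serum (limma adjusted p 0.81) and by -5.74 in 2i (interaction -5.66 ± 0.27, limma adjusted p 2.8e-08). The keratin Krt19 was 3.45 higher in 3B3l-serum and had a difference of -1.65 in 2i (interaction -5.11), and Krt8 was 3.66 higher in serum with -0.41 in 2i. Dppa3 and Krt19 were at background in 3B3l-2i, so their 2i differences and interactions are not exact sizes. Hmga2, an architectural chromatin protein, was 2.77 higher in serum and had a difference of -1.42 in 2i. In the trophoblast list 8 of 16 genes were higher in 3B3l-serum and none lower, while in 2i 2 were higher and 3 lower. Contractile genes behaved likewise, with 9 of 12 higher in serum and 1 in 2i. Over all genes 5.96% were higher and 6.58% lower in serum, and 5.47% were higher and 6.39% lower in 2i.

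**Figure D5:**
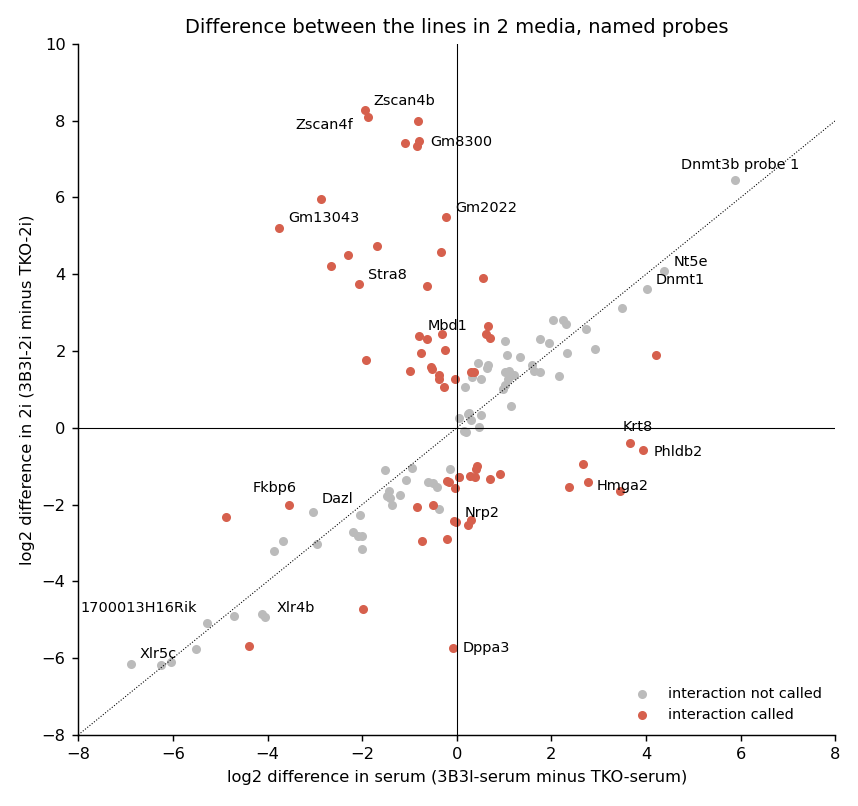
Log2 difference between the lines in 2i (vertical axis) against that in serum (horizontal axis) for the named probes, with 1 point for each probe and the line of equal differences. Xlr genes, Dnmt1 and the first Dnmt3b probe lie near the line, the Zscan4 genes lie high on the vertical axis at negative serum values, and Dppa3 lies near 0 in serum and at -5.74 in 2i.

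The called genes that could be placed against the wild type in the same medium were those well above background on all 2i arrays of the 3 lines, and TKO-2i was the nearer of the lines in most of them. Among 359 such higher genes J1-2i was nearer to TKO-2i in 266 and lay between the lines in 199. Among 358 such lower genes it was nearer to TKO-2i in 278, lay between the lines in 220 and above both in 119. Lefty2 and Otx2 were examples of the last kind, Stra8 and Cdx1 were below both lines in J1-2i, and Dazl and Xlr3b lay between. J1-2i and TKO-2i shared slides, while 3B3l-2i did not share a slide with either, so slide cannot be told apart from this order.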

How the data were processed

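Total RNA was hybridised to 1-colour (Cy3) Agilent mouse arrays of 62976 spots. The deposited scanner files hold fluorescence intensity per spot, read by the authors with Agilent Feature Extraction 11.5.1.1 and, per the file headers, background-subtracted and detrended, with no normalization between arrays. A further deposited table, of normalized log2 values of 30170 probes made by the authors, was used only as an alternative, and in it 3 of 16 columns were closest to the array of the same name and 16 of 16 to an array of their group. No coordinates were taken from the files.

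Processed intensities were converted to log2 and set relative to the 75th percentile of the non-control spots of each array, the mean of a probe's spots was taken without those that carried an outlier mark but with saturated ones, and a probe passed as well above background where 50% or more of its spots did. The 75th percentile lay between 1019 and 1797 intensity units over the 16 arrays, and the number of arrays limits the precision. Gene symbols were matched through RefSeq accessions (assembly GRCm38.p6), which named 28026 of 55681 probes.

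All 16 arrays, grouped by their titles, were fitted as 6 group means with limma 3.58.1 (R 4.3.3, with version 1.17.8 of data.table) and eBayes, with two-sided tests and Benjamini-Hochberg adjustment over 27126 probes. A gene counted as higher or lower through any probe called that way. The script was tested on simulated data. Named genes were all methyltransferase probes, the 12 genes with the largest difference in each direction measured in both groups, the 8 with the largest bounds, up to 5 called members of each of 28 lists with selected study genes, and the 5 largest interactions in each direction. The promoters of Xlr3b and Zscan4f were added after their values were seen. The members and lists were chosen with earlier results of these data known. List medians used 1 probe per gene, that with the highest mean. Alternatives were array median, quantile and normexp values, 3 other filters on dim probes, the 5 arrays alone, replicate and slide terms, the table of the authors, an unpaired t-test, no fold limit, and leaving out each array. Replicate numbers did not pair the samples (correlations of deviations -0.06 and -0.08).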

Additional observations from a re-analysis of the deposited data

Results flagged for a closer look

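The values here are log2 differences of differences, (3B3l-2i minus TKO-2i) minus (3B3l-serum minus TKO-serum), that passed limma's interaction test with a size of at least 1. In all, 1549 genes did. Where a group was at background in 2i, the value rests on floor signals and is not an exact size. This holds, among others, for Zscan4b, Zscan4f, Gm13043, Gm20767, Gm8300, Gm21319, Dppa3 and Krt19. 3B3l was on slide 3 in both media, and TKO on slide 1 in serum and on slides 1 and 2 in 2i. The named genes with a positive value, for which 3B3l stood relatively higher in 2i, were led by the Zscan4 genes and the mostly predicted genes that followed the same order in 2i. Zscan4b had 10.23, Zscan4f 9.99, Gm13043 8.97 and Gm20767 8.83. Zscan4c had 8.83 and 4.90 on its probes and Zscan4a 8.50 and 4.33. Gm8300 had 8.28, Gm21319 8.18, AF067061 6.89, Gm4312 6.80, Gm4340 6.41 and Gm2022 5.72. Among germline and meiosis genes Stra8 had 5.82, Mael 2.77, Asz1 2.57, Meioc 2.06, Ddx4 1.65, Fkbp6 1.54 and Sycp3 1.32. For Asz1, 3B3l was at background in both media, while TKO stood at 0.49 in serum and at -2.01 in 2i. Genes of hypoxia followed, with Ndufa4l2 at 3.70, Bnip3 at 2.92 and Egln3 at 2.71. S100g had 3.35, with 1 of its 3B3l-2i arrays, 1 of 3 Mbd1 probes 3.20, Dlk1 2.46, Dppa2 2.27, Nkd1 2.13, Tlx2 1.99, Hoxb13 1.83, Loxl1 1.75, Cubn 1.66, Amn 1.33, Dnmt3l 1.14 and Stmn2 1.09.

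The negative values belonged to Dppa3 at -5.66 and to genes of epithelia and the cytoskeleton, Krt19 at -5.11, Phldb2 at -4.52, Krt8 at -4.07, Krt42 at -3.91 and S100a6 at -3.62. Hmga2 had -4.19. Homeobox genes were Hoxc6 at -2.76, Hoxd9 at -2.35, Cdx2 at -2.30 and Otx2 at -1.49. Nefm had -2.74, Glod5 -2.69, Fam53b -2.69, Nrp2 -2.44, Ly6g6e -2.22 and Ncam1 -1.52. Id2 had -2.11, Id4 -1.66, Cdkn2b -2.05 and Mycn -1.26. The third and the second Dnmt3b probe had -1.53 and -1.44. Cldn4 had -1.46, Pramel7 -1.33, Xlr4a -1.30, Fbln2 -1.21 and Ifitm1 -1.16. Of the 64 named probes with such a value, 43 had the opposite direction in serum, and 13 were called in both media in opposite directions.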

How the results depend on the processing

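The number of calls was set mainly by the filter on dim probes, the background correction and the fold limit. With probes well above background on all 16 arrays (10159 genes) 342 genes were higher and 329 lower, the interaction gave 669, serum 710, and 89 and 91 were shared with serum, where fewer genes were tested. With normexp 570 were higher and 534 lower, and 177 lower genes were shared with serum; the cause was not tested. With adjusted p alone 2939 were higher and 2296 lower, the interaction gave 2561, serum 5085, and 1351 and 931 were shared. An unpaired t-test of the 5 arrays, which the study's methods use for single genes rather than for calls, gave 714 and 867 genes without adjustment and 486 and 634 after Benjamini-Hochberg. The other alternatives kept the counts within 1.5 times. With 1 of the 5 arrays compared left out, they lay between 720 and 856 higher, 812 and 913 lower, 1449 and 1535 for the interaction, 1720 and 1790 for serum, 173 and 241 shared higher and 300 and 325 shared lower. Leaving out the serum arrays, chosen after seeing the data, gave 1447 to 1607 for the interaction, 1579 to 1776 for serum, 176 to 190 shared higher and 284 to 336 shared lower, and leaving out the J1-serum array of slide 3, also chosen then, 775 and 910.

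When replicate number entered as a block, 734 genes were higher and 846 lower, of which 698 and 824 were called without it. It took no call from the methyltransferase probes, and 3 named genes lost theirs.

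Dnmt3a, which was at background, turned to -0.0914 under quantile normalization and to -0.0978 in the table of the authors. The second Dnmt3b probe missed the 2-fold limit under array median scaling (-0.93), quantile normalization (-0.98), normexp (-0.87) and in the table of the authors (-0.99), and lay between -1.18 and -0.83 when 1 array was left out. The third missed a call under normexp (-0.70), with slide as a fixed term (-1.24) and by the unpaired t-test (-1.26), and lay between -1.60 and -0.91. Dnmt1 (3.46 to 3.76), the first Dnmt3b probe (6.28 to 6.65) and Dnmt3l (1.35 to 1.54) kept their calls with 1 array left out, and Dnmt3l missed the limit at 0.98 with slide as a fixed term. Uhrf1 turned to -0.0914 under quantile normalization, -0.0929 in the table of the authors, -0.186 under normexp, -0.0226 with the replicate block, -0.14 with slide as a fixed term and -0.00875 with it as a random block, and lay between -0.0779 and 0.0734 with 1 array left out. Nanog turned to 0.23 with slide as a fixed term and lay between -0.34 and 0.14 with 1 array left out, Krt8 turned to 0.0133 under normexp, and Pcgf1 to -0.24 and Tfcp2l1 to -0.31 with slide as a fixed term. Of the 118 called named probes outside the methyltransferases, 116 kept their direction and 79 their direction and call in every alternative run, and with slide as a fixed term 21 kept their direction but lost their call, besides Pcgf1 and Tfcp2l1. The medians of 22 of 28 lists moved by more than the spread between replicates in at least 1 alternative.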
